A study of Mus musculus with 9 samples.

Results

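T-box transcription factors are DNA-binding proteins that share the T-box, a domain that recognises a short conserved DNA motif. The 8 genes described here, Tbx1, Tbx2, Tbx3, Tbx4, Tbx5, Tbx15, Tbx18 and Tbx20, were taken as every non-control probe that carries their gene name on the arrays, and they are 8 of 21245 named genes on the array. They were read by 10 probes, 3 of them for Tbx20 and 1 for each of the others. The values are from satellite cells, which are muscle stem cells, of Bmi1-deficient mice (KO) and wild type mice (WT), all male, on the FVB background and 2 months old. Bmi1 is a Polycomb group protein that helps to keep developmental genes silent. Both groups went through the same sort, which selected for integrin alpha-7 together with CD34 and against CD31, CD45, CD11b and Sca1, and the RNA of both was amplified before labelling. The labels do not give the deleted part of Bmi1, whether the loss was limited to a tissue, or whether animals were pooled.

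Several T-box genes act as repressors and others as activators, and their dose matters in development. Tbx2 and Tbx3 repress the cell cycle inhibitor genes of the Cdkn2a locus, Tbx4 and Tbx5 pattern the hindlimb and forelimb, and Tbx15 acts in limb skeleton and glycolytic muscle fibres. Tbx1 acts in pharyngeal and head muscle progenitors, Tbx18 marks the epicardium, the sinus node and many pericytes, and Tbx20 is a heart regulator.

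The study hybridised 3 WT and 6 KO arrays with 1 colour. The titles number all 9 as biological replicates, but KO arrays come in 3 pairs that share the first number of their description. These pairs correlated at 0.9944 to 0.9956 over the kept probes, against 0.962 to 0.979 for the other 33 pairs of arrays, and each was averaged into 1 sample, which gave 3 WT and 3 KO samples. The labels do not say that these came from separate mice, so the p-values rest on the spread among these samples and that spread may be technical. The array titled KO replicate 1 carries a wild type genotype entry while its title, source and description say KO. It correlated at 0.995 with KO replicate 4 and at most at 0.970 with a WT array, and it was kept in KO. On each array 71.9% to 75.8% of the probes were well above background, and the small number of arrays limits the precision. Bmi1 itself, at chromosome 2 in mm9, did not pass the test at either probe (differences of 0.10 ± 0.13 and 0.21 ± 0.14 log2, limma's adjusted p = 0.864 and 0.699), and probes outside the deleted part would check nothing. All 10 satellite cell markers measured, such as Pax7 and Myf5, were well above background on all 3 WT arrays.

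Levels below are log2 of the background-subtracted signal relative to the array's 75th percentile, so a level of 0 is as bright as that percentile. A difference is the KO mean minus the WT mean in log2, ± the standard error of limma's fit on 3 samples against 3. A probe was called when its Benjamini-Hochberg adjusted p, taken over all 42981 probes kept, was under 0.05. In bulk RNA of sorted cells, fewer cells of a type and less RNA per cell cannot be told apart.

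What the probes read sets what can be said of each gene, and the sequence of the Tbx20 probe that was detected on all arrays is shown because the other Tbx20 probes were not. It lies on the minus strand at chr9:24563177-24563236 of mm9 and has no stop codon in any of its 3 reading frames, which held for none of the other 9 member probes.
Tbx20 probe: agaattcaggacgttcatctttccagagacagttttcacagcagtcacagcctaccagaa
An annotation of mm9 was not used here, so no probe is assigned to coding sequence or to a UTR.

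RefSeq promoter windows on GRCm38.p6 matched 4 of the 8 genes, Tbx1 with 2 starts, Tbx4, Tbx18 and Tbx20. Dense CG dinucleotides are a known feature of promoters that Polycomb proteins occupy. The 250 bases before the start are shown for Tbx18, the gene with the largest positive difference, and for both starts of Tbx1, the gene with the largest negative one, with each CG in capitals. All 3 windows lie on the minus strand, at chr9:87731261-87731510, chr16:18588900-18589149 and chr16:18590672-18590921.
Tbx18: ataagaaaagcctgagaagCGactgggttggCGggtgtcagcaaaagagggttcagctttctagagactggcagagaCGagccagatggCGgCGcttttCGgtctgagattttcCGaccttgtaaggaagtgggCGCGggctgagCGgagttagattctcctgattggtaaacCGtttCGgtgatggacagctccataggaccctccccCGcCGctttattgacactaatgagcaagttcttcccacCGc
Tbx1, lower-coordinate start: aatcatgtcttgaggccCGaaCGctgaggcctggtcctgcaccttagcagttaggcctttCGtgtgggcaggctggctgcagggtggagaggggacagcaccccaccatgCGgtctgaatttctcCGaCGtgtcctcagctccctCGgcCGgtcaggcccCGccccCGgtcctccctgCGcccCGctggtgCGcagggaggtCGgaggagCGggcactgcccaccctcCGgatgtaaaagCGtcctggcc
Tbx1, higher-coordinate start: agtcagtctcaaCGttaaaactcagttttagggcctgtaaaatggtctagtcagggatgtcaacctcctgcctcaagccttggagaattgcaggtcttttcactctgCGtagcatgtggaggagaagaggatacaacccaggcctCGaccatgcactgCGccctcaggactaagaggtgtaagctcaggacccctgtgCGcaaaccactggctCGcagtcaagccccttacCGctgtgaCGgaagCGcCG
The window of Tbx18 held 15 CG dinucleotides, and those of Tbx1 held 17 and 10. Tbx20 held 22 and Tbx4 held 6, against a median of 6 and quartiles of 2 and 16 over 32851 windows of the same length. The counts of Tbx18, Tbx4 and the higher-coordinate start of Tbx1 lay between these quartiles. A common T-box binding motif, AGGTGTGA, was searched on both strands and was found in 0 of the 5 member windows and in 1.12% of all windows, which says only that these letters are not in these windows.

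Over the family, none of the 7 probes that passed the filter on dim signal was called, with limma's adjusted p between 0.233 and 0.789, while 0.0489% of all probes tested were called (21 of 42981) and 0.0465% were called as higher in KO. At an unadjusted p under 0.05 there were 2 member probes, Tbx18 and Tbx3, both higher in KO, beside 10.7% of all probes, or 6.49% counting those higher in KO. The 7 differences had a median of 0.20 log2, with 4 above and 3 below 0, and the median of all probes was -0.01 with 48.0% above 0. At 3 of the 7 probes, Tbx18, Tbx3 and Tbx2, every KO sample lay above every WT sample. Among all probes 8.59% showed that order and 16.5% separated the groups in either direction. The 3 probes that did not pass the filter, for Tbx5 and the other 2 of Tbx20, have no test.

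**Figure D1:**
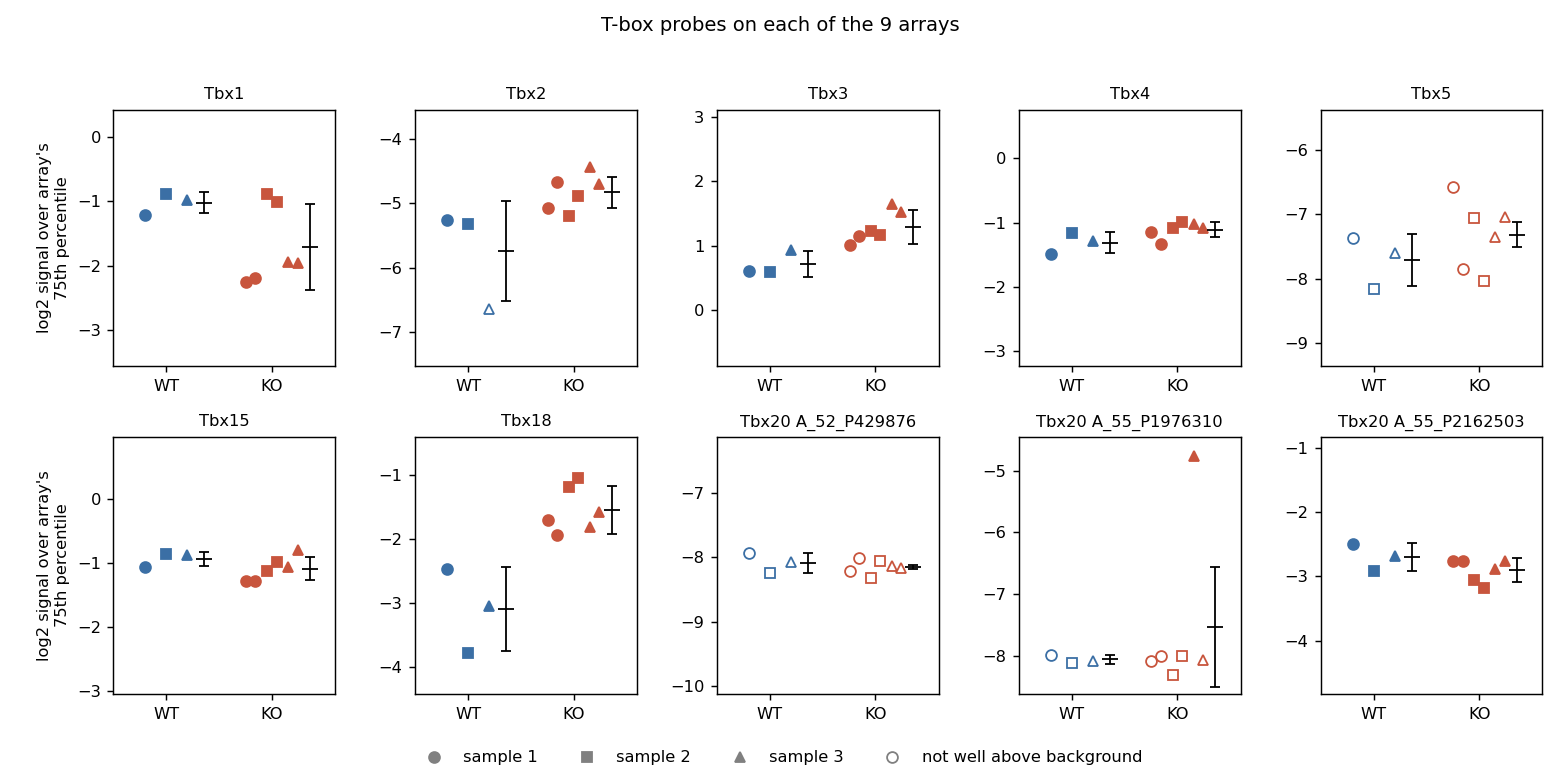
Log2 signal relative to the array's 75th percentile at each of the 10 T-box probes, with 1 symbol per array, filled where the probe was well above background, and a bar for the mean ± SD of the 3 samples of a group. Each panel has its own axis; the KO symbols lie above the WT symbols for Tbx18 and Tbx3, while for Tbx1 only KO samples 1 and 3 lie below WT.

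Tbx18 showed the largest difference of the family. Its probe (A_51_P438711, chromosome 9, 87599514 to 87599573, minus strand, mm9) read -2.46, -3.77 and -3.04 in WT samples 1, 2 and 3. In KO samples 1, 2 and 3 it read -1.82, -1.12 and -1.70. All KO samples were above all WT samples, WT sample 2 was the lowest and KO sample 2 the highest. The level was 1.55 ± 0.37 higher in KO (95% interval 0.64 to 2.46), which is 2.93-fold with an interval of 1.56 to 5.51. This did not pass the test over all probes (limma's unadjusted p = 0.00599, adjusted p = 0.233), although 2.57% of all probes had as small a p. The difference was 1.20 with normexp background correction and 1.15 from the authors' deposited values. Leaving out any 1 sample gave 1.21 to 1.86. With all 9 arrays entered as separate samples, as the titles number them, Tbx18 was called (limma's adjusted p = 0.0252), in a fit that called 3.81% of all probes. With a random effect for the sample and a fixed one for the slide, limma's adjusted p was 0.128 for Tbx18, where that fit called 0.847% of all probes. The arrays lay on 2 slides, and the difference was 1.11 within slide 1 (2 WT and 3 KO arrays) and 2.33 within slide 2 (1 WT and 3 KO arrays).

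Tbx3, a repressor that works in limb, breast and heart development, had the second smallest p of the family. Its probe (A_55_P1969002, chromosome 5, 120134511 to 120134570, plus strand) read 0.60, 0.58 and 0.94 in the WT samples and 1.08, 1.20 and 1.59 in the KO samples. The groups did not overlap, and sample 3 was the highest in both. The difference was 0.58 ± 0.19 (95% interval 0.11 to 1.05), or 1.49-fold with an interval of 1.08 to 2.07. It did not pass the test (limma's unadjusted p = 0.0231, adjusted p = 0.365). Leaving out any 1 sample gave 0.43 to 0.69.

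Tbx2, the close relative of Tbx3, read near background. Its probe (A_55_P2010773, chromosome 11, 85655391 to 85655450, plus strand) gave -5.26, -5.31 and -6.64 in WT and -4.87, -5.04 and -4.57 in KO. WT sample 3 stood lowest and was the only array of the 9 on which the probe was not well above background. The difference was 0.91 ± 0.40 (95% interval -0.07 to 1.89, limma's adjusted p = 0.499). Without WT sample 3 it was 0.46, with normexp background correction it was 0.13, and from the authors' deposited values it was 0.15. Its size thus moved with the handling of dim signal, while its direction did not.

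The partners of Tbx2 and Tbx3 on their chromosomes, Tbx4 and Tbx5, are the limb-identity genes. The Tbx4 probe (A_55_P2112445, chromosome 11, 85729510 to 85729569, plus strand) lies 74.06 kb from that of Tbx2. It read -1.49, -1.16 and -1.29 in WT and -1.24, -1.04 and -1.06 in KO, and the groups overlapped. The difference of 0.20 ± 0.14 did not pass the test (95% interval -0.15 to 0.56, limma's adjusted p = 0.709). The Tbx5 probe (A_52_P523712, chromosome 5, 120334087 to 120334146, plus strand), 199.5 kb from that of Tbx3, was not well above background on any of the 9 arrays. Its readings ran from -8.16 to -7.37 in WT samples and from -7.54 to -7.19 in KO samples, and no fold is given because neither group was well above background.

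Tbx15 was detected on all 9 arrays with similar readings in both groups. Its probe (A_52_P232802, chromosome 3, 99157901 to 99157960, plus strand) gave -1.06, -0.86 and -0.88 in WT and -1.28, -1.06 and -0.93 in KO. KO sample 1 was the lowest and the groups overlapped. The difference was -0.16 ± 0.15, with a 95% interval of -0.52 to 0.20 (limma's adjusted p = 0.789).

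Among the 7 probes tested, that of Tbx1 had the widest range over the KO samples. Its probe (A_55_P2051716, chromosome 16, 18581807 to 18581866, minus strand) read -1.20, -0.88 and -0.98 in WT. In KO it read -2.23 in sample 1, -0.95 in sample 2 and -1.95 in sample 3. KO samples 1 and 3 lay below every WT sample and KO sample 2 lay among them. Both arrays of each KO sample gave nearly the same reading, with a largest difference of 0.13 within a pair against a range of 1.28 over the KO samples. The difference between groups was -0.69 ± 0.34 (95% interval -1.53 to 0.16, limma's adjusted p = 0.563). It was -1.07 without KO sample 2 (limma's adjusted p = 0.205) and -0.43 without KO sample 1.

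The brightness of the 3 Tbx20 probes cannot be set against each other, but detection differed. Only the one shown by sequence above was detected throughout, while A_55_P1976310, annotated to the same transcript, was not. Detection of Tbx20 thus rests on 1 probe, and whether it also reads other transcripts was not tested. That probe (A_55_P2162503) read -2.49, -2.92 and -2.68 in WT and -2.75, -3.11 and -2.83 in KO. The groups overlapped, with sample 2 the lowest in both. The difference was -0.20 ± 0.17 (95% interval -0.63 to 0.22, limma's adjusted p = 0.765). The probe A_52_P429876 (chromosome 9, 24527750 to 24527809) was well above background on 0 of 9 arrays. The probe A_55_P1976310 (24544715 to 24544774) was so on 1 of 9, the KO replicate 3 array at -4.76, while the paired array of the same sample read -8.07.

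**Figure D2:**
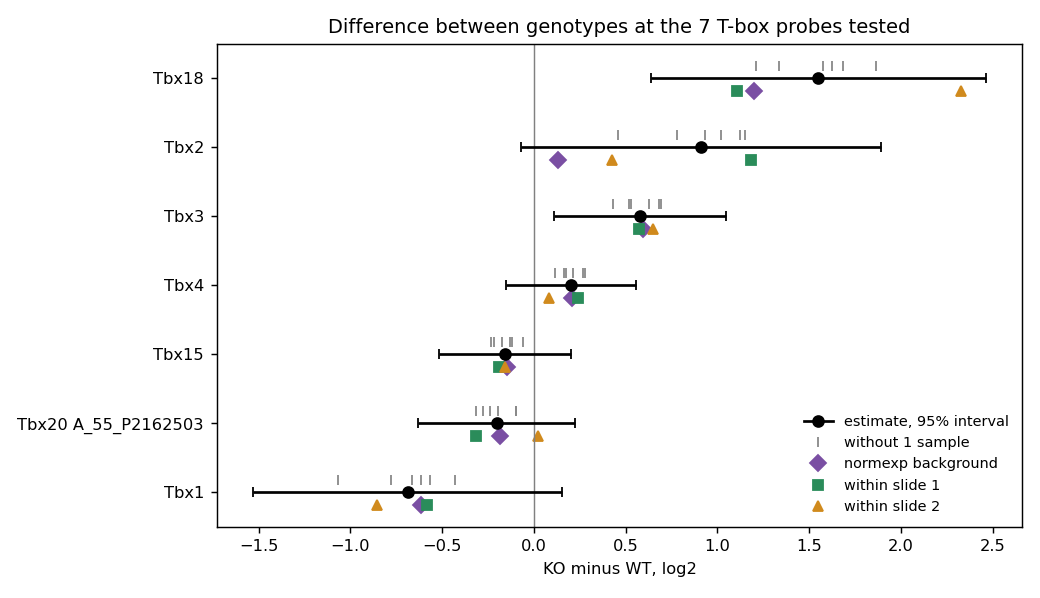
KO minus WT in log2 at the 7 T-box probes tested, with the 95% interval of limma's fit (circle and bar), the values without each sample in turn (ticks), with normexp background correction (diamonds) and within each slide (squares and triangles). The intervals of Tbx18 and Tbx3 lie above 0 and those of the other 5 probes cover 0; Tbx2 under normexp is at 0.13.

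The family as read here thus spanned differences from -0.69 for Tbx1 to 1.55 for Tbx18. Any 2 neighbours in that order had overlapping 95% intervals. No test between members was made, since members are not replicates.

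Other T-box genes, 9 in number, were read as a comparison list. Of the 8 that were measured, 0 were called and 0 had an unadjusted p under 0.05 in limma's fit, with 4 higher and 4 lower in KO and a median of 0.02, which ran from -0.19 (without KO sample 3) to 0.12 (without KO sample 2). Mga, a Max partner that carries a T-box, differed by 0.08 ± 0.15, and Tbx21, the T helper cell regulator, by -0.05 ± 0.18. Both read well above background on all 9 arrays, while Eomes, Tbr1 and Tbx19 did so on only some.

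Genes known as T-box targets or partners were listed too, 20 in all, of which 15 were measured. Cdkn2a, the locus that Tbx2 and Tbx3 repress and a known Bmi1 target, was the only one called. It read -4.28, -4.23 and -3.64 in WT and -0.92, -0.57 and -0.82 in KO, with no overlap. It rose by 3.28 ± 0.22 (limma's adjusted p = 0.0207). This call was lost when any 1 sample was left out (differences of 3.17 to 3.48, limma's adjusted p = 0.0671 to 0.122). Those fits called 0 to 3 of all probes. The Cdkn2a call was also lost with the mean slide number of each sample as a covariate (3.33, limma's adjusted p = 0.0815) and within slide 1 (3.17, limma's adjusted p = 0.125). Gata4 and Gata6, zinc finger partners of T-box factors in heart tissue, were dim on every WT array and well above background on all 6 KO arrays. This gives at least 3.47-fold and at least 3.79-fold higher readings in KO, and neither gene was called. Both passed the filter through KO alone, so the filter itself fixed their direction and no p-value is given for them. With normexp they differed by 0.65 and 0.75 log2, and from the authors' deposited values by 0.71 and 0.83, which is less than these bounds. A bound sets the KO mean over all samples against the higher of the lowest well-measured signal on each WT array and the WT reading itself. Gja1, a gap junction gene that T-box repressors act on, differed by 1.82 ± 0.28 (limma's adjusted p = 0.111), by 1.09 with normexp, and Shox2, a sinus node regulator upstream of Isl1, by 1.51 ± 0.41 (limma's adjusted p = 0.277). Gja1 was called with normexp, from the deposited values, with an intensity trend and in both fits of all 9 arrays (limma's adjusted p = 0.00463 to 0.0477). Gata4 and Gata6 were called in both fits of all 9 arrays, and Gata6 also from the deposited values and with the trend. These calls add no support, since the filter fixed the direction of both genes. Without Gata4 and Gata6, 8 of 13 genes on the list were higher and 4 had an unadjusted p under 0.05, beside 48.0% and 10.7% of all probes. Their median was 0.11, against -0.01 over all probes. With Gata4 and Gata6 the median was 0.70, which became 0.34 with normexp, 0.40 from the deposited values, 0.40 with the stricter filter and 0.37 without WT sample 1. The heart genes Nppa, Nppb and Gja5, which Tbx5 activates and Tbx2 and Tbx3 repress, differed by -0.42, -0.03 and -0.14 and were not called. Cdh1, Fgf10, Hand2, Isl1 and Nkx2-5 did not pass the filter.

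The genes whose profile over the 6 samples was most like that of Tbx18, by the root mean square difference of mean-centred log2 values, were Gbgt1 (0.12), Nr2f1 (0.21), Ramp1 (0.25), Bcas1 (0.26) and Ifitm1 (0.28). They were chosen for this likeness, so their order of samples follows from the choice and is given with no test. Gbgt1 read -4.34, -5.73 and -4.80 in WT and -3.59, -3.22 and -3.51 in KO.

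The genes next to the T-box loci were read to see whether the differences extended along the chromosome. They were the nearest genes with a RefSeq name, each placed at its brightest kept probe. Nearer probes could thus be passed over. Bcas3 was read 346 kb from Tbx2, though a dimmer kept probe lay 16.2 kb away, and Gm9104, 34.5 kb from Tbx4, was not included. Of the 24 genes so chosen, with 2 on each side of a locus and Tbx2 with Tbx4 and Tbx3 with Tbx5 taken as 1 locus each, 0 were called by limma. An unadjusted p under 0.05 was reached by 4, beside 10.7% of all probes. They had a median difference of -0.11, with 7 higher and 17 lower, where 48.0% of all probes were higher. Beside Tbx18, Nt5e, an ecto-nucleotidase that makes adenosine, differed by 1.15 ± 0.18 (limma's adjusted p = 0.116) from 667 kb away. It read -3.46, -3.07 and -3.39 in WT and -2.40, -2.01 and -2.08 in KO, and the groups did not overlap. The other 3 genes around Tbx18 (Cep162, Cyb5r4 and Snx14) differed by -0.15 to 0.19. Beside Tbx3, AW549542, 114.3 kb away, differed by 1.46 ± 0.33 (limma's adjusted p = 0.207), and Sdsl, a serine dehydratase relative on the other side, by -0.67 ± 0.18 (limma's adjusted p = 0.270). With all 9 arrays entered as separate samples, limma called AW549542 and Nt5e as higher in KO (adjusted p = 0.0363 and 0.00905). Sdsl and Gnb1l A_55_P2017302 were called as lower there (limma's adjusted p = 0.0226 and 0.0321), and Cypt4 beside Tbx20 was not called (0.244). That fit called 3.81% of all probes. Only probes around the loci with an unadjusted p under 0.05 on 3 samples against 3 were read again. These calls thus follow from that choice and add no support. The AW549542 difference was 0.85 with normexp. Nt5e was also called with the random effect for the sample (limma's adjusted p = 0.0206), in a fit that called 0.847% of all probes. Around Tbx1, the brightest kept probes of Gnb1l, Txnrd2, Gp1bb and Septin5 differed by -0.30 to 0.03. A dimmer Gnb1l probe, A_55_P2017302, differed by -0.95 ± 0.22 (limma's adjusted p = 0.226), and by -0.46 with normexp, and dimmer probes of Gp1bb differed by -0.32 and 0.20.

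**Figure D3:**
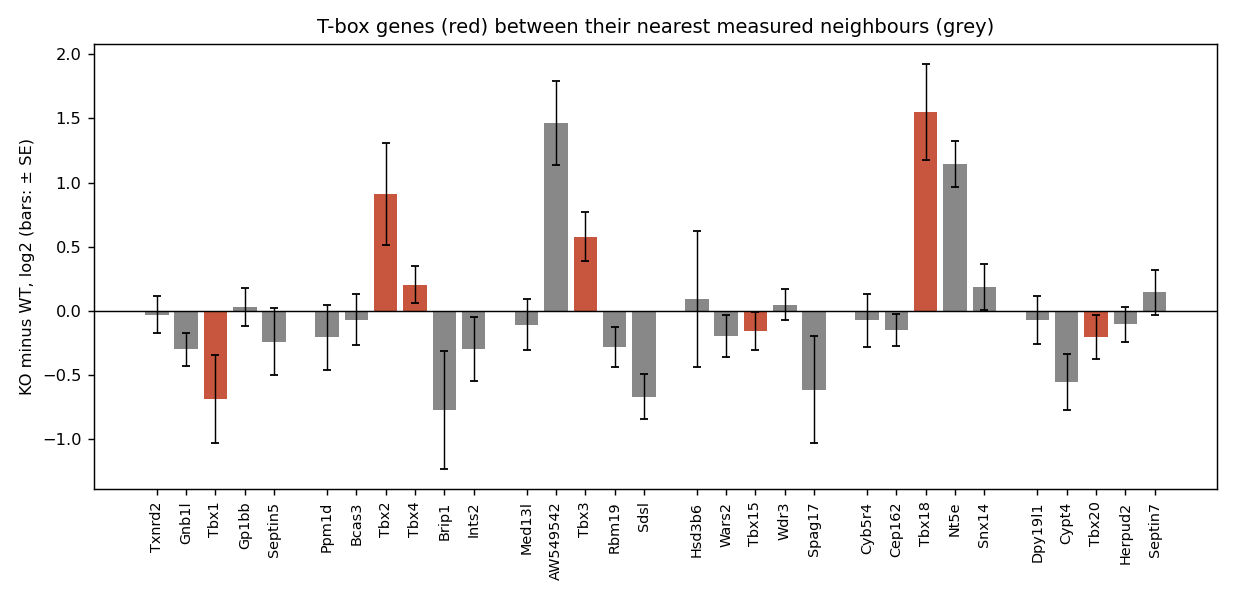
KO minus WT in log2 (bars ± SE of limma's fit) for the T-box genes in red and for neighbouring genes on either side in grey, in order along each chromosome and with loci set apart. Neighbours are the nearest genes with a RefSeq name, each placed at its brightest kept probe. AW549542 at 1.46, beside Tbx3, and Nt5e at 1.15, beside Tbx18, are the grey bars that stand highest.

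The lists of mural, mesenchymal, endothelial and glial markers, cells that the sort removes or does not select for, had positive medians, while the blood list did not. Tbx18 itself is known in mural cells, the pericytes and smooth muscle cells of vessels. All 8 mural markers were higher in KO, with a median of 0.65 and a summed level of 51.3 to 57.5 in WT against 61.4 to 65.1 in KO (in units of each array's 75th percentile), and all were well above background on all WT arrays. Pdgfrb, a pericyte receptor, differed by 1.35 ± 0.12 (limma's adjusted p = 0.0567). The mesenchymal list was higher at 6 of 7 without Pdgfra (median 0.63, or 0.76 with it, summed level 96.5 to 110 against 113 to 130 with it). Pdgfra, its defining receptor, was below the detection mark on all WT arrays and passed the filter through KO alone. It was at least 3.62-fold higher in KO by the same bound, which holds only for the background subtraction used here. Pdgfra was not read with normexp, under which Gata4 and Gata6 fell below their bounds. The endothelial list was higher at 9 of 9 (median 1.12, or 0.53 with normexp and 0.51 from the deposited values, summed level 3.83 to 5.03 against 5.05 to 7.43, with 6 of 9 well above background on all WT arrays), and the glial list at 5 of 6 (median 0.96, summed level 21.9 to 28.3 against 32.3 to 34.9). The tendon list was higher at 3 of 4, the differentiated muscle list at 3 of 5 and the blood list at 2 of 7, with medians of 1.13, 0.19 and -0.02. Leaving out 1 sample moved the tendon median between 0.36 (without WT sample 1) and 1.82 (without KO sample 1), and the differentiated muscle median between -0.13 (without KO sample 1) and 0.54 (without WT sample 3). No marker on these lists was called. Satellite cell markers had a median difference of 0.07, with a summed level of 100.5 to 114 in WT and 104 to 106 in KO.

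By sample, the median deviation of the mural list from its WT mean was 1.01 in KO sample 1, 0.30 in KO sample 2 and 0.78 in KO sample 3. Tbx18 deviated by 1.28, 1.98 and 1.40 in the same samples. Tbx3 deviated by 0.37, 0.49 and 0.88. Tbx1 deviated by -1.20, 0.07 and -0.93. Its 2 low samples had higher endothelial deviations (1.77 and 1.28) than KO sample 2 (0.29). This order was not particular to the endothelial list. KO sample 2 was also the lowest KO sample for the mural, mesenchymal, glial, blood and differentiated muscle lists. It was not the lowest for the tendon and satellite cell lists. The part of other cells in these differences was not tested.

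**Figure D4:**
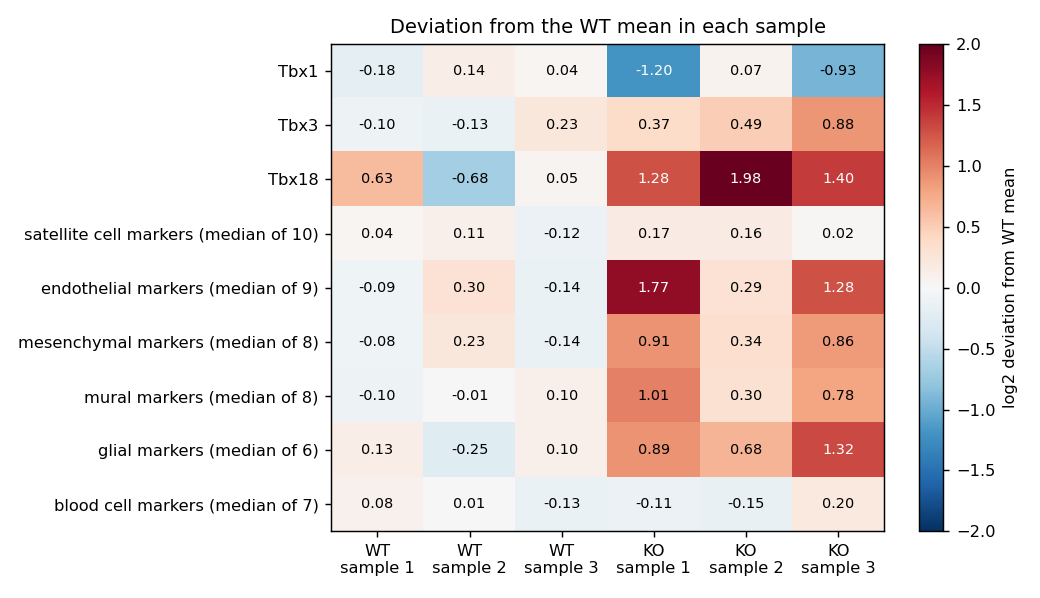
Deviation of each of the 6 samples from the WT mean in log2, for Tbx1, Tbx3 and Tbx18 and for the median of each marker list (the number of markers measured is in the label). In KO sample 2 Tbx18 stands at 1.98 and Tbx1 at 0.07. The endothelial, mesenchymal and mural medians there are 0.29 to 0.34, and the glial median is 0.68.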

How the data were processed

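The authors deposited scanner output of 9 Agilent arrays of 1 colour, with spot intensity on a linear scale that Agilent Feature Extraction 10.7.3.1 background-subtracted, per the file headers. They also deposited a table of processed values, on a log2 scale by its range, that matched normexp with an offset of 50 and quantile normalization (r = 0.999976, largest difference 0.0569), each column with a median of 7.81. The method behind it is not stated in the sources used here.

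For the values above, log2 of the processed signal minus each array's 75th percentile was used. Control spots and outlier spots (93 to 148 on an array) were dropped, spots of the same probe were averaged, and 35 empty values were filled with the probe's mean on the other arrays. Feature Extraction gives probes at background a small positive surrogate, which makes a fold near background unreliable. The filter asked for signal well above background on 3 or more of the 9 arrays and left 42981 of 55681 probes. Because 6 of the 9 arrays are KO, a gene detected only in KO passes more easily. Repeat arrays of a KO sample were averaged, and the groups were compared in limma 3.58.1 (lmFit, eBayes; R 4.3.3), without covariates, with Benjamini-Hochberg adjustment. The script was tested on simulated data. Coordinates come from the array design (mm9). Names were updated through RefSeq (GRCm38.p6), by accession for 26300 probes, by symbol for 2044 and by synonym for 355, and 26982 kept the name in the files. Sequences and plots used Python with pandas and matplotlib.

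The members, the gene lists and the alternatives were chosen with earlier results of these data known. The text names all members, list members by smallest p or as examples, and the 5 genes most like the member with the smallest p. It also names Bmi1 and, on each side of a locus, genes from the 2 nearest with a RefSeq name, placed by their brightest kept probe. Brightest kept probes stood for listed genes. Alternatives were the background correction, the normalization, the filter, 1 probe per gene, slide, pairing, the unit of replication, each sample left out, KO replicate 1 left out, and the variance prior.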

Additional observations from a re-analysis of the deposited data

How the results depend on the processing

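In every setting run, Tbx1, Tbx2, Tbx3, Tbx4, Tbx15 and Tbx18 kept the direction of their difference. Member probes called were 0 except with all 9 arrays as separate samples, where there was 1, Tbx18 (1.55 ± 0.30, limma's adjusted p = 0.0252). Over the alternatives limma's adjusted p for Tbx18 ran from 0.0252 to 0.447. Within slide 2 alone, with 1 WT array and no test, Tbx18 differed by 2.33, and the difference of the Tbx20 probe A_55_P2162503 turned from -0.20 to 0.020. The cause was not tested.

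Among all probes, the 21 calls became 282 with normexp, 208 with the authors' deposited table, 61 with the stricter filter, 39 with 1 probe per gene name, 422 with an intensity trend in the prior, 1639 with all 9 arrays as samples and 364 with a random effect for the sample and a fixed one for the slide. They became 1 with the mean slide number of each sample as a covariate. Each KO sample had an array on each slide, so this covariate rested on WT sample 2 against WT samples 1 and 3. The calls became 0 within slide 1 (4336 at an unadjusted p under 0.05 in limma's fit) and 0 with the replicate block (4361 at an unadjusted p under 0.05). Leaving out 1 sample at a time left 0 to 3 calls, with 0 without any WT sample or without KO sample 2 (3740 to 4733 at an unadjusted p under 0.05). Deviations of WT and KO samples with the same number correlated at -0.03, 0.02 and 0.02, and those with different numbers at -0.07 to 0.05. This cannot settle whether the numbers pair the samples, since a pairing with little shared effect would look the same. In the replicate block limma's adjusted p was 0.410 for Tbx18 and 0.369 for Tbx3, and Cdkn2a lost its call (3.28 as in the fit without it, adjusted p = 0.210, with 2 residual degrees of freedom). Where 1 WT or KO sample was left out, the variance rests on 5 samples. The signal over background limits Tbx2, Tbx5 and 2 Tbx20 probes.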

Other observations

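Within 100 kb of the member probes the arrays hold 42 other probes, many of unnamed transcripts, a window chosen after the values were seen. Of these 23 passed the filter on dim signal and 0 were called by limma, with 2 at an unadjusted p under 0.05. These were a further probe of Gnb1l beside Tbx1, A_55_P2017302, at -0.95 (limma's adjusted p = 0.226), and Cypt4 beside Tbx20 at -0.55 ± 0.22 (limma's adjusted p = 0.454). The brightest Gnb1l probe, A_51_P519555, differed by -0.30 ± 0.13, so the probes of this gene gave different sizes in the same direction.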
